A study of Mus musculus with 20 samples.

Results

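The cytochrome P450 family was followed in the livers of gonadectomized mice whose gonads and sex chromosomes had been inherited separately. P450 enzymes carry a heme group and use molecular oxygen to hydroxylate their substrates. In hepatocytes, enzymes of the Cyp1, Cyp2 and Cyp3 families clear drugs, pollutants, steroids and retinoids. Cyp4 enzymes hydroxylate fatty acids, and other families make bile acids, sterols and steroid hormones. Several mouse liver P450 genes are textbook examples of sex-biased expression, and that bias is set largely by the pattern of growth hormone release, which gonadal steroids shape.

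Members were all genes whose single platform symbol began with Cyp and a digit. They comprised 80 probes and 65 genes of 11647 named genes, within 21556 measured features. A single probe measured 54 of these genes and the other 11 had 2 to 4 probes, which were averaged. The mouse gene table (assembly GRCm38.p6) lists 134 genes of such names, 99 of them protein-coding, so the set is a sample of the family. Cyp7a1, the rate-limiting enzyme of bile acid synthesis, Cyp27a1, Cyp2a4 and Cyp3a44 were not analysed here. Cyp4b1-ps2 is a pseudogene, and the identifiers of the probe named Cyp11b1 matched no gene of the mouse table.

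Liver RNA of 20 C57BL/6J mice was hybridised on 20 arrays of 2 colours, 1 animal each, against a common liver pool. The 4 groups of 5 were XX Sry and XY-Sry mice, which are gonadal males, and XX and XY- mice, which are gonadal females. Every Y chromosome was the Y- chromosome, which lacks Sry, the testis-determining gene, and both kinds of gonadal male carried Sry as an autosomal transgene. Gonadal type and the transgene therefore cannot be told apart. Every group received chow of 4% fat and was gonadectomized at 8 weeks of age. Livers were taken at 12 weeks, following 12 h without food, so no animal had gonads when its liver was taken.

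All values below are log2 ratios of liver over pool or differences between such ratios, and they compare livers for a gene, never the levels of different genes. The 20 arrays had SDs over all features of 0.173 to 0.34. The arrays of XX animals 2 and 6 and XY- animals 3 and 12 had SDs above 0.3 and are called wide below. The Y-linked gene Eif2s3y was at -3.90 in the library labelled XY- 30, whereas 9 livers of the same sex chromosomes had 0.57 to 1.34 and the 10 XX livers had -5.28 to -2.46. Kdm5d, also Y-linked, was at -3.16 in that library, whereas those 9 livers had 0.14 to 1.37 and the XX livers -3.03 to -1.22. The library labelled XY- 30 thus went against its label. Counts of P450 calls and the gonadal differences of called P450 genes are given with and without it.

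Between gonadal males and gonadal females, 2 of 65 P450 genes passed an adjusted p of 0.05 (limma), which is 3.08% of the members. Over all features, 808 of 21556 (3.75%) passed, so P450 genes were called about as often as other features. Cyp2d9, a steroid 16-alpha-hydroxylase of male mouse liver, rose in gonadal males. Cyp2b13, a female-biased Cyp2b enzyme, fell in gonadal males. Of all features 316 (1.47%) were higher in gonadal males and 492 (2.28%) lower. The members' median difference was -0.000648, against 0.00751 for all features.

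Promoters are shown for both called genes and for close relatives that were not called. The windows run from 250 bases before to 50 after the RefSeq start (build GRCm38.p6) and are written 5′ to 3′. Cyp2d9 lies at chr15:82452127-82452426, plus strand, and Cyp2d10 at chr15:82407145-82407444, minus strand. Cyp2b13 lies at chr7:26061245-26061544, Cyp2b9 at chr7:26173159-26173458 and Cyp2b10 at chr7:25897408-25897707, all on the plus strand. Capitals mark 2 motifs, each searched on both strands. One is TTCCGG with its reverse complement, the core bound by ETS factors such as GABP. The other is TTTATA with its reverse complement TATAAA, the sequence of a TATA box. It was counted in either orientation and at any position, so a match need not be a TATA box.
Cyp2d9: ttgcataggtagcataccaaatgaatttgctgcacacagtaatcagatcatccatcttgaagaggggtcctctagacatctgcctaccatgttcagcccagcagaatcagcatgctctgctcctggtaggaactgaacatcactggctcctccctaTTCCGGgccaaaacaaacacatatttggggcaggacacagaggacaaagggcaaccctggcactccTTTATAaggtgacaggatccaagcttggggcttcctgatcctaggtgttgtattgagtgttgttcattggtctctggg
Cyp2d10: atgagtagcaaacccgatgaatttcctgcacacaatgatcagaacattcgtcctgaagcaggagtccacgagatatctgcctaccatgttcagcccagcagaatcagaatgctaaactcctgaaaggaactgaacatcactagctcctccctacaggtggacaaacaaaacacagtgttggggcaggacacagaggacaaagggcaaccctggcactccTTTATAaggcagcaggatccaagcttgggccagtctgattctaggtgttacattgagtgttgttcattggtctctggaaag
Cyp2b13: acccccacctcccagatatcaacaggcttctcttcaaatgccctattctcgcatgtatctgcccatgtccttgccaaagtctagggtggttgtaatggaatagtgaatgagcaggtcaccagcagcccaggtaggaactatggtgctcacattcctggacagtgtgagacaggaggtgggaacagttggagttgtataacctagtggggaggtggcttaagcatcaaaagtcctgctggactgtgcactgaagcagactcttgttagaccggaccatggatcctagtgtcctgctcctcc
Cyp2b9: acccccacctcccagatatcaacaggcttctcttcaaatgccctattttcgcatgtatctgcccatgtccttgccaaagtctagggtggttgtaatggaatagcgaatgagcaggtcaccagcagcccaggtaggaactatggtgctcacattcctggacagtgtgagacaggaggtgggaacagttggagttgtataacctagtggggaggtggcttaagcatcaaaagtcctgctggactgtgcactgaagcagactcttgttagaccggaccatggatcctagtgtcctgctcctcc
Cyp2b10: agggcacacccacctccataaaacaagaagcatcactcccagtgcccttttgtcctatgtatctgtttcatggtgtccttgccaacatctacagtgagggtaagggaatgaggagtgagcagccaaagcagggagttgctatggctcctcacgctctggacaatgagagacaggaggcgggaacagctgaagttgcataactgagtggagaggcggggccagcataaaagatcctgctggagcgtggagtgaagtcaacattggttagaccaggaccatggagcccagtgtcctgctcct

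The Cyp2d9 and Cyp2d10 windows shared 252 of 304 aligned positions (82.9%). Both held TTTATA, whose first base was at -28 in Cyp2d9 and -31 in Cyp2d10. TTCCGG occurred at -94 in Cyp2d9 and not in the Cyp2d10 window. A GABP element in the mouse Cyp2d9 promoter has been studied for its methylation in males and females. Whether the TTCCGG at -94 is that element, or bears on the Cyp2d9 difference, was not tested. The ETS core was present in 14.9% of 32851 promoters and in 3 of the 47 members with a window, Cyp2d9, Cyp2r1 and Cyp4f13. The TATA motif was in 13.6% of all promoters and in 20 of 47 members. TTCNNNGAA, bound by STAT5, which carries the growth hormone signal, and by its antagonist BCL6, was searched on both strands, where it reads the same. It was in 8.3% of all promoters and in 4 of 47 members (Cyp2j11, Cyp2j12, Cyp4b1 and Cyp4f13), and in none of the windows above. For each motif the share of all promoters counts windows, whereas a member was counted if any of its windows held the motif. The Cyp2b13 and Cyp2b9 windows were identical at 298 of 300 positions (99.3%), and Cyp2b13 and Cyp2b10 at 223 of 311 (71.7%). Probe sequences were not used here, so whether a probe reads 1 or several of these near-identical genes cannot be told.

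Cyp2d9 was at 0.99, 0.23, 0.31, 0.39 and 0.69 in XX Sry livers and at 0.24, 0.24, 0.22, 1.19 and 0.46 in XY-Sry livers. It was at -1.93, -1.65, -0.80, -0.49 and -1.39 in XX livers and at -0.71, -1.77, -1.26, -2.00 and -1.32 in XY- livers. All 10 gonadal males were above the pool and all 10 gonadal females below it, so the groups did not overlap. Cyp2d9 averaged 0.50 ± 0.35 in gonadal males and -1.33 ± 0.53 in gonadal females (SD, n = 10 each). The difference was 1.83 ± 0.20 (SE), or 3.55-fold, with an adjusted p of 4.44e-05 (limma). It was 1.78 (adjusted p = 0.000152) without the library labelled XY- 30 and 1.76 (adjusted p = 0.000418) without the 4 wide arrays. Cyp2d9 was the only P450 gene whose groups did not overlap, against 74 of all features (0.343%).

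Cyp2d9 differed within both sex chromosome complements. XX Sry livers exceeded XX livers by 1.78 ± 0.28 (SE, adjusted p = 0.00503, limma), and XY-Sry livers exceeded XY- livers by 1.88 ± 0.28 (adjusted p = 0.00421). These differences were themselves -0.11 apart (95% interval -0.92 to 0.71, adjusted p = 1). The second call was lost when only XY-Sry and XY- entered the fit (difference 1.88, adjusted p = 0.0688), and without the 4 wide arrays and the library labelled XY- 30 together (difference 1.76, adjusted p = 0.0943). Cyp2d9 was the only member called in either comparison. It stayed so without the library labelled XY- 30 alone, at 1.78 within XX (adjusted p = 0.00587, limma) and 1.79 within XY (adjusted p = 0.016). Over all features, 139 (0.645%) were called between XX Sry and XX and 34 (0.158%) between XY-Sry and XY-. Single animals moved these counts. The first was 42 to 86 without any one of XX Sry 9, 18, 31, 32 and 38, XX 2 and XX 35, and 462 without XY- 12. The second was 11 to 21 without any one of XY-Sry 5, 14, 19 and 27 and XY- 3, and 51 without XY- 12. The counts were 169 and 23 without the library labelled XY- 30.

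Cyp2b13 was measured by 2 probes that disagreed in size. The first probe read -0.25, -0.54, 0.21, -0.83 and -0.30 in XX Sry livers and -0.59, -0.61, -0.58, 0.06 and -0.41 in XY-Sry livers. It read 0.25, 0.71, 0.75, 0.53 and 0.50 in XX livers and -0.41, 0.47, 0.03, 0.94 and 0.67 in XY- livers. XX livers were all above both groups of gonadal males, whereas XY- 12 and XY- 24 lay within the range of gonadal males. The second probe ranged from -0.19 to 0.10 in gonadal males and from -0.39 to 0.36 in gonadal females, and the groups overlapped widely. The first probe gave -0.83 ± 0.16 (SE, adjusted p = 0.00667, limma) and the second -0.09 ± 0.07 (adjusted p = 0.582).

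**Figure D1:**
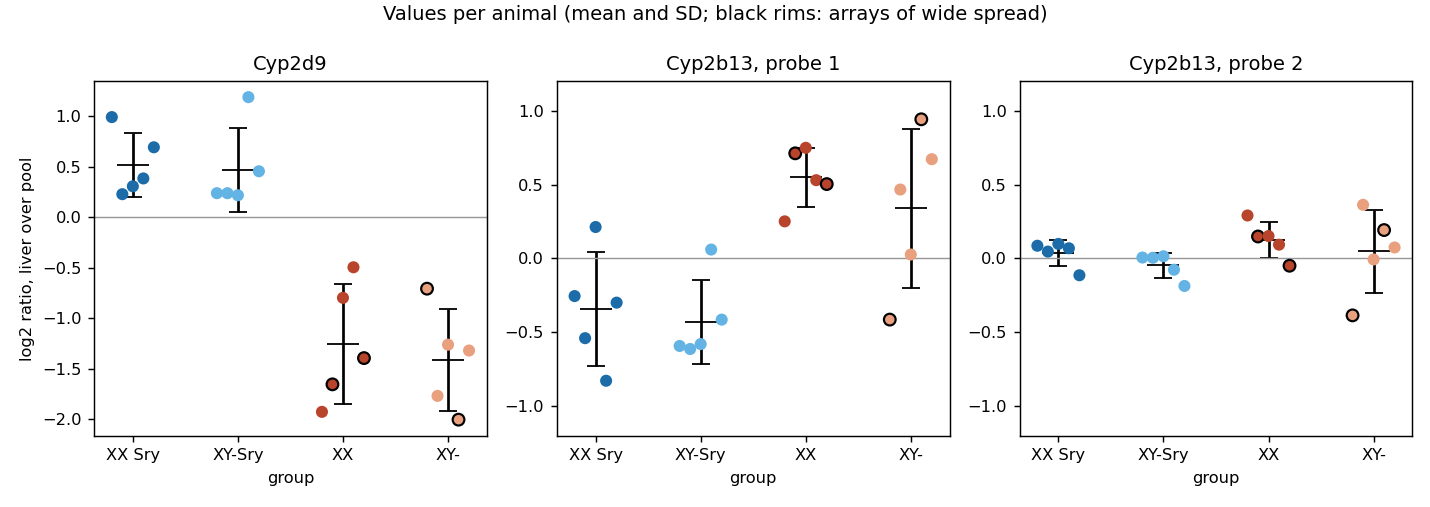
Log2 ratio of liver over pool for each animal (points), with mean and SD (bars), for Cyp2d9 and for both probes of Cyp2b13 in XX Sry, XY-Sry, XX and XY- livers. All 10 gonadal males were above 0 and all 10 gonadal females below 0 for Cyp2d9, and the first Cyp2b13 probe spread further than the second.

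Averaged over its probes, Cyp2b13 had means of -0.20 ± 0.17 among gonadal males and 0.27 ± 0.28 among gonadal females (SD, n = 10 each). The difference was -0.46 ± 0.10 (SE), 1.38-fold lower in gonadal males (adjusted p = 0.015, limma). All 10 gonadal males lay below the median of gonadal females, although XY- 12, at -0.40, was the lowest of all animals. The difference was -0.43 (adjusted p = 0.0213) without the library labelled XY- 30 and -0.50 (adjusted p = 0.00382) without the 4 wide arrays. It was -0.49 in XX mice (adjusted p = 0.126) and -0.43 in XY mice (adjusted p = 0.314), and neither alone passed the test.

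The other Cyp2b genes were not called. Cyp2b9, whose promoter window nearly matches that of Cyp2b13, differed by -0.09 ± 0.10 (SE, adjusted p = 0.719, limma), with its 2 probes at -0.22 and 0.03. Cyp2b10, the classical target of the xenobiotic receptor CAR, differed by 0.09 ± 0.33 (adjusted p = 0.939), and Cyp2b23 by 0.09 ± 0.26 (adjusted p = 0.926). Cyp2b10 ranged from -0.89 to 1.05 in gonadal males and from -1.30 to 1.67 in gonadal females, so its animals differed far more than its groups. Cyp2g1, an enzyme known mainly from olfactory tissue, differed by -0.19 ± 0.06 (adjusted p = 0.11), and Cyp2a5 and Cyp2a12, coumarin and steroid hydroxylases, by -0.03 and 0.03.

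The other 3 measured Cyp2d genes were not called. Cyp2d10 differed by 0.02 ± 0.15 (SE, 95% interval -0.29 to 0.32), Cyp2d22 by -0.10 ± 0.09 (interval -0.29 to 0.09) and Cyp2d34 by 0.16 ± 0.07 (interval 0.01 to 0.31, adjusted p = 0.232, limma). Each interval excludes the size of the Cyp2d9 difference. Over 20 arrays the median correlation among the 4 Cyp2d genes was -0.13, and the strongest was 0.47.

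At an unadjusted p under 0.05, 15 members (23.1%) differed between gonadal males and females, 6 higher and 9 lower in gonadal males, against 3836 of all features (17.8%). Cyp7b1, the oxysterol 7-alpha-hydroxylase and a male-biased gene, came next after the called pair. It ranged from -0.57 to 0.65 with a median of 0.22 in gonadal males, and from -0.74 to 0.17 with a median of -0.27 in gonadal females. Its difference was 0.47 ± 0.14 (SE, adjusted p = 0.0592, limma). XY-Sry 20, at -0.57, was the single gonadal male below the gonadal female median, and without it the difference was 0.57 (adjusted p = 0.00801). Without XY- 12 it was 0.52 (adjusted p = 0.0425).

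**Figure D2:**
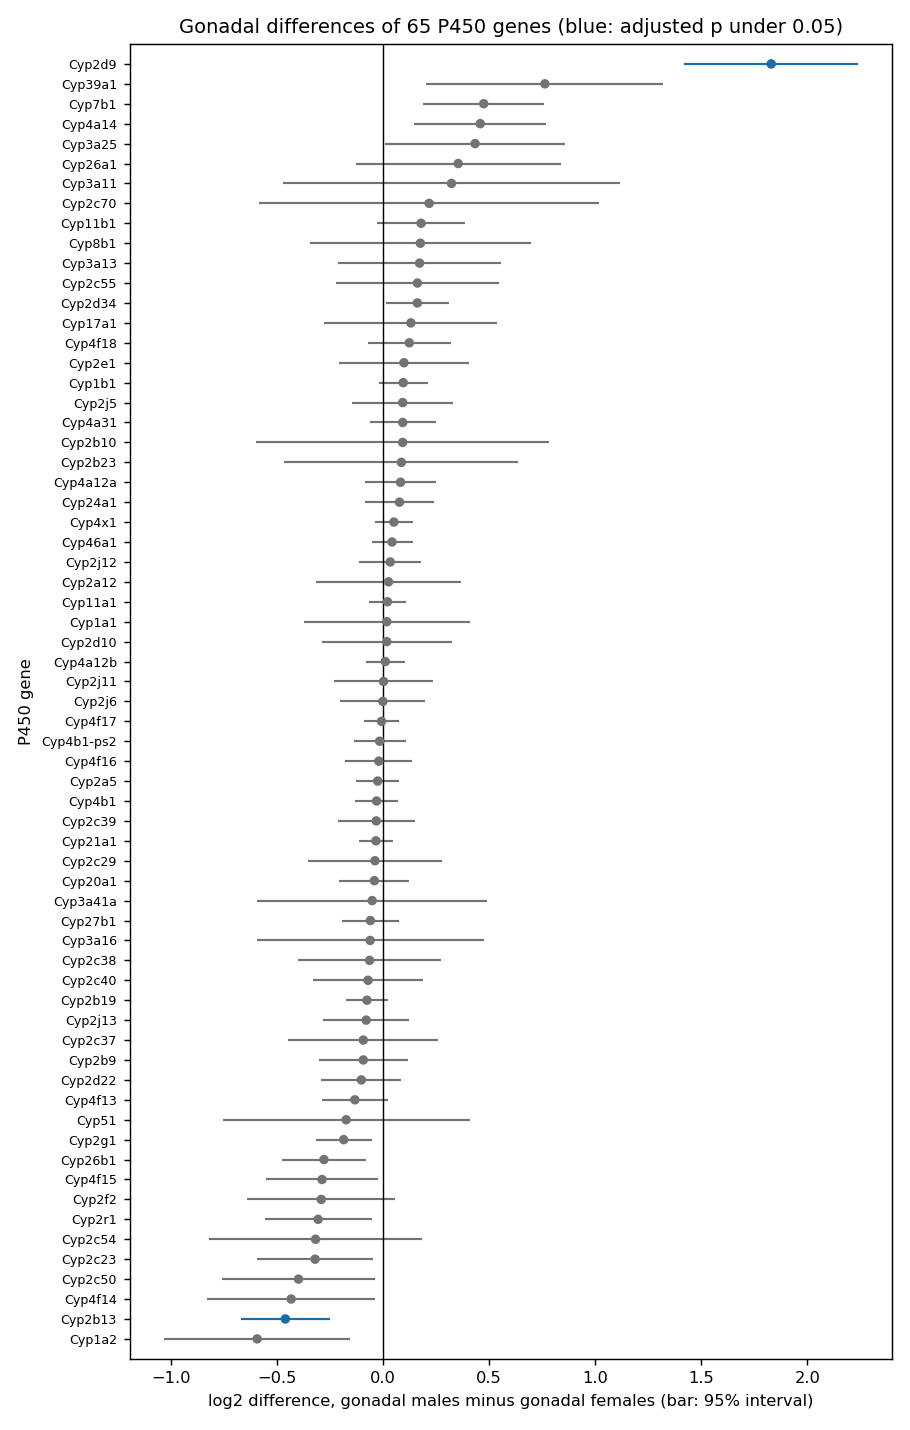
Differences of 65 P450 genes, gonadal males minus gonadal females, on the log2 scale (points) with 95% intervals (bars), ordered by size. Cyp2d9 at 1.83 and Cyp2b13 at -0.46 (blue) passed the adjusted p of 0.05, and most other intervals cross 0.

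Among the other genes of bile acid and sterol synthesis, Cyp39a1, a sterol 7-alpha-hydroxylase, differed by 0.76 ± 0.27 (SE, adjusted p = 0.123, limma). It ranged from -0.34 to 0.89 in gonadal males and from -1.84 to 0.60 in gonadal females. Cyp39a1 is female-biased in intact mice, yet the value here was positive. All 10 gonadal males were above the median of gonadal females, and the difference was 0.51 (adjusted p = 0.211) without the 4 wide arrays. Cyp8b1, the sterol 12-alpha-hydroxylase that sets the ratio of bile acids, differed by 0.18 ± 0.25 (adjusted p = 0.803), and by -0.33 (adjusted p = 0.175) without the wide arrays. Cyp51, the lanosterol demethylase of cholesterol synthesis, differed by -0.17 ± 0.28 (adjusted p = 0.831) and by 0.28 without the wide arrays.

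Cyp1a2, an enzyme of caffeine and arylamine metabolism induced through the Ah receptor, ranged from -1.03 to 0.39 in gonadal males with a median of -0.43. In gonadal females it ranged from -0.50 to 1.02 with a median of 0.00. The difference was -0.59 ± 0.21 (SE, adjusted p = 0.126, limma), and -0.19 (adjusted p = 0.635) without the wide arrays. The 4 highest of all 20 livers were the wide arrays XY- 3, XX 6, XY- 12 and XX 2. Cyp1a1 and Cyp1b1, the other targets of the Ah receptor, differed by 0.02 and 0.10.

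In Cyp2c, a subfamily that epoxidises arachidonic acid and clears drugs, 8 of 10 genes had values below 0 and none was called. Cyp2c50 was lowest at -0.40 ± 0.17 (SE, adjusted p = 0.225, limma), followed by Cyp2c23 at -0.32 ± 0.13 (adjusted p = 0.191) and Cyp2c54 at -0.32 ± 0.24 (adjusted p = 0.557). All 10 gonadal males were below the gonadal female median for Cyp2c23. Cyp2c70, which makes muricholic acids in mice, ranged from -0.97 to 0.74 in gonadal males and from -2.17 to 1.46 in gonadal females. Its difference was 0.22 ± 0.38 (adjusted p = 0.852), and 0.95 ± 0.28 (adjusted p = 0.0795) without the wide arrays. XX 2, XX 6 and XY- 3 held the 3 highest values of gonadal females. The 4 probes of the female-biased gene Cyp2c40 ranged from -0.26 to 0.10.

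In Cyp3a, the main drug-metabolising subfamily, no gene was called. Cyp3a25 differed by 0.43 ± 0.20 (SE, adjusted p = 0.27, limma), with its 3 probes at 0.42, 0.53 and 0.35. Cyp3a11, a target of the receptor PXR, differed by 0.32 ± 0.38 (adjusted p = 0.751) and Cyp3a13, an intestinal form, by 0.17 ± 0.18. The female-biased genes Cyp3a41a and Cyp3a16 differed by -0.05 ± 0.26 and -0.06 ± 0.26. The probes of Cyp3a41a disagreed in sign, at -0.20, -0.19 and 0.23. Without the wide arrays Cyp3a25 stood at 0.15 and Cyp3a11 at -0.13.

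In Cyp4, the fatty acid hydroxylases, Cyp4a14, a PPAR-alpha target, differed by 0.46 ± 0.15 (SE, adjusted p = 0.0954, limma). It ranged from -0.04 to 0.29 in gonadal males and from -1.10 to 0.16 in gonadal females. The 4 lowest livers were XX 6, XX 2, XY- 3 and XY- 12, and without these wide arrays the difference was 0.13 (adjusted p = 0.226). Without XX 29 it was 0.52 (adjusted p = 0.0471). Cyp4f14, a leukotriene and vitamin E hydroxylase, had its 4 highest values in XX 2, XX 6, XY- 3 and XY- 12. Its difference was -0.43 ± 0.19 (adjusted p = 0.232, limma), and -0.02 without these arrays. Cyp4f15 differed by -0.29 ± 0.13 (adjusted p = 0.231), and Cyp4f13 by -0.13 ± 0.07 (adjusted p = 0.374). The 2 probes of Cyp4f16 had opposite signs, at 0.24 and -0.28, and its average of -0.02 hides both. The male-biased genes Cyp4a12a and Cyp4a12b differed by 0.08 and 0.01.

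Of the vitamin D and retinoid enzymes, Cyp26b1, which degrades retinoic acid, differed by -0.28 ± 0.09 (SE, adjusted p = 0.109, limma). It was called without XY-Sry 5 (-0.34, adjusted p = 0.0337) and without XX 6 (-0.34, adjusted p = 0.0284). Cyp26a1, the main hepatic retinoic acid hydroxylase, ranged from -0.39 to 0.74 in gonadal males and from -0.99 to 1.12 in gonadal females. Its difference was 0.35 ± 0.23 (adjusted p = 0.477). Without the wide arrays, which include the gonadal females at 1.12 and 0.51, it was 0.69 ± 0.18 (adjusted p = 0.0442). The lowest value, -0.99, was that of the library labelled XY- 30, and Cyp26a1 was not called when this library was left out as well. Cyp2r1, a vitamin D 25-hydroxylase, differed by -0.31 ± 0.12 (adjusted p = 0.175), and Cyp24a1 and Cyp27b1, which inactivate and activate vitamin D, by 0.08 and -0.06.

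No gene of the other families was called. Cyp2e1, the ethanol-inducible form, differed by 0.10 ± 0.15 (SE) and Cyp2f2, a naphthalene epoxidase, by -0.29 ± 0.17 (adjusted p = 0.392, limma). The 5 Cyp2j epoxygenases ranged from -0.08 to 0.09, and the probes of Cyp2j11 stood at -0.15 and 0.16. Among genes of steroid hormone synthesis the probe named Cyp11b1 differed by 0.18 ± 0.10 (adjusted p = 0.369) and Cyp17a1, the 17-alpha-hydroxylase, by 0.13 ± 0.19, while Cyp11a1 and Cyp21a1 stood at 0.02 and -0.03. Without the wide arrays and the library labelled XY- 30 together, the probe named Cyp11b1 was called at 0.29 (adjusted p = 0.0329, limma). Cyp20a1, an orphan P450, differed by -0.04.

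**Figure D3:**
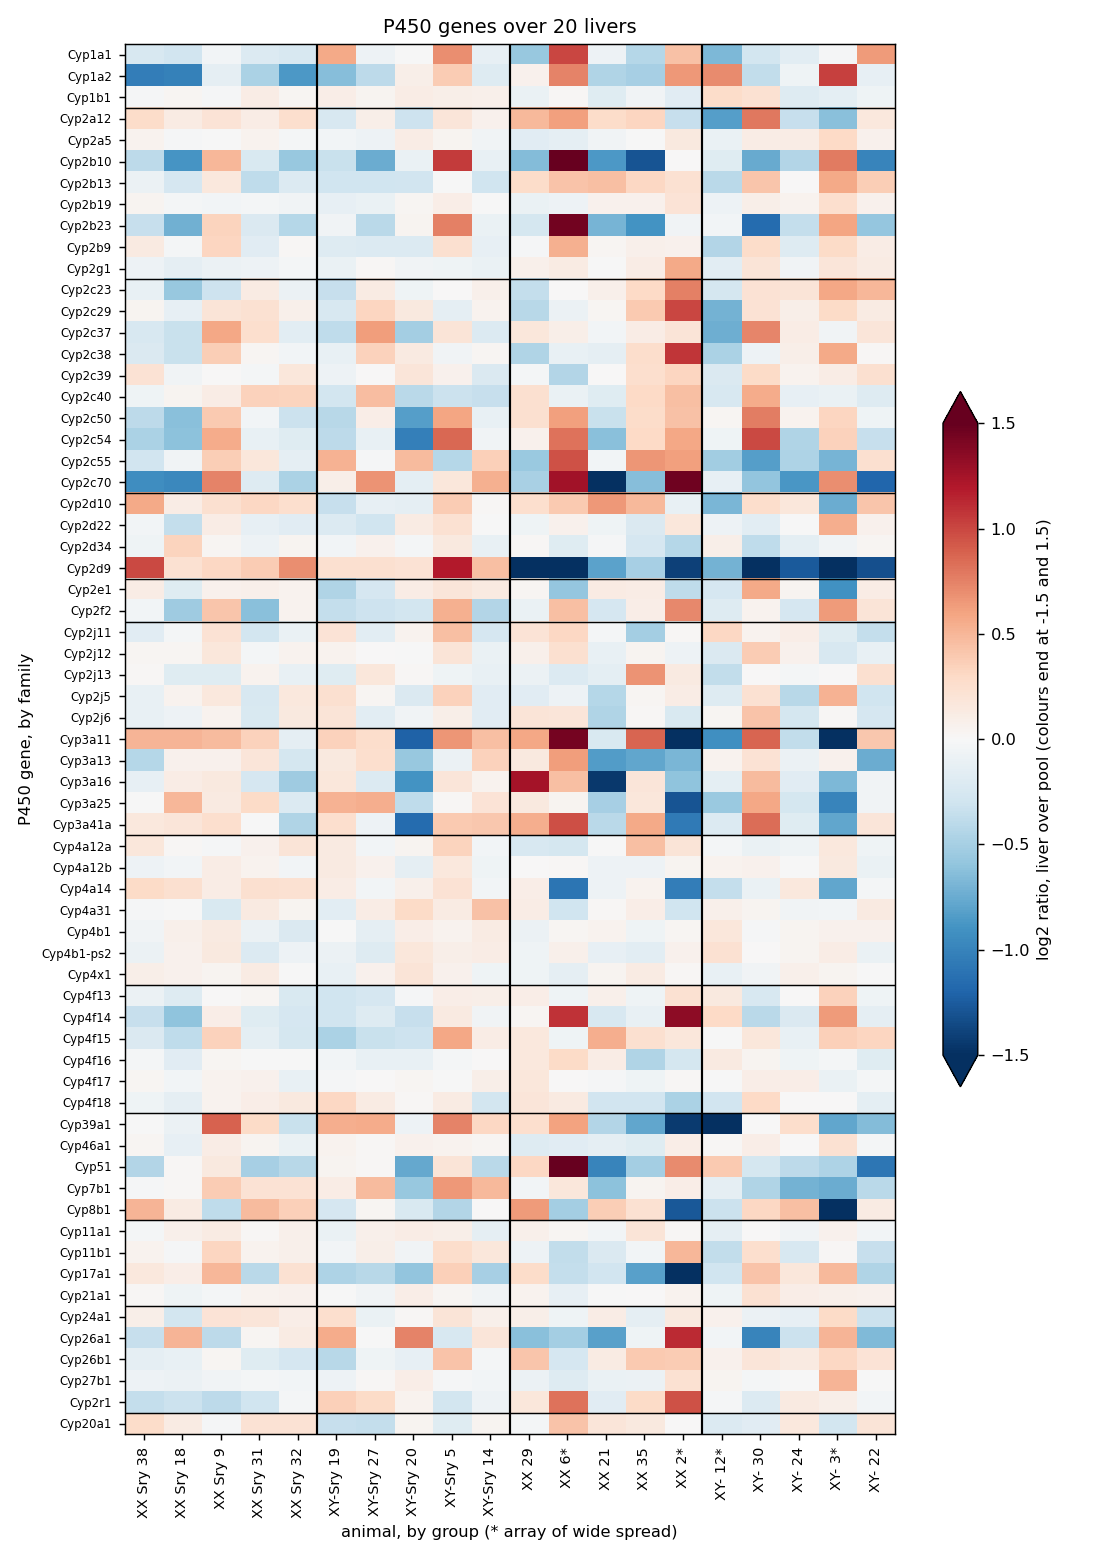
Log2 ratios of 65 P450 genes (rows, grouped by family) in 20 livers (columns, by group), red above and blue below the pool, with asterisks on the 4 wide arrays. The Cyp2d9 row divides gonadal males from gonadal females, and the strongest colours of other rows lie mostly in single gonadal female livers.

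Genes known to be sex-biased in intact mice were set beside these values as lists. Of 9 measured female-biased P450 genes (of 13 listed) 1 was lower in gonadal males, Cyp2b13, and none higher, with a median difference of -0.05. Of all features 2.28% were lower and 1.47% higher. At an unadjusted p under 0.05 this list held 1 lower gene, Cyp2b13, and 2 higher ones, Cyp4a14 and Cyp39a1. The median of this list changed sign, to 0.04, without the library labelled XY- 30, and was -0.07 without the wide arrays. Of 4 measured male-biased genes (of 5) 1 was higher, Cyp2d9, with a median of 0.28, against 0.00751 over all features, and Cyp7b1 joined it at an unadjusted p under 0.05. Of 8 measured targets of CAR or PXR only Cyp2b13 was called. None of 3 Ah receptor targets and none of 2 measured PPAR-alpha targets passed the test; at an unadjusted p under 0.05 these lists held Cyp1a2 and Cyp4a14.

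The partners of the P450 enzymes and the regulators of their genes were read from the same fit. Of 8 measured genes of heme synthesis and breakdown (of 12), Alad, the second enzyme of heme synthesis, fell by 0.41 in gonadal males (SE 0.07, adjusted p = 0.00345, limma). Alas1, the rate-limiting enzyme of that pathway, differed by -0.52 ± 0.16 (adjusted p = 0.0864) and Hmox1, the inducible heme oxygenase, by 0.48 ± 0.49 (adjusted p = 0.698). At an unadjusted p under 0.05 the heme list held 1 higher and 4 lower genes. Beside the calls in each of these lists, 1.47% of all features were called higher and 2.28% lower in gonadal males. Of 36 measured regulators (of 42), Cux2 passed, with 0.72 ± 0.15 (adjusted p = 0.0119). Cux2 is a transcription factor known for higher expression in female than in male mouse liver, and here the means were 0.26 for gonadal males and -0.46 for gonadal females. Socs2, an inhibitor of growth hormone signalling, differed by 0.76 ± 0.29 (adjusted p = 0.164), and the coactivator Ppargc1a by 0.67 ± 0.22 (adjusted p = 0.0962). At an unadjusted p under 0.05 the regulators held 7 higher and 5 lower genes, 17.8% being the share of all features. Of the growth hormone pathway, Stat5a differed by -0.49 ± 0.18 (adjusted p = 0.153), the growth hormone receptor Ghr by -0.36 ± 0.16 (adjusted p = 0.228) and Stat5b by -0.07 ± 0.06. Also of this pathway, Jak2 differed by -0.20 ± 0.11, Cish by 0.01 ± 0.08 and Igf1 by 0.03 ± 0.14. Bcl6, a repressor of female-biased genes, was at -0.01 ± 0.06. None of 3 measured redox partners passed, and Fdx1, which feeds electrons to mitochondrial P450 enzymes, had the largest size at -0.11 ± 0.08.

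Several markers of macrophages and lymphocytes were lower in gonadal males, as were 2.28% of all features. Of 14 measured Kupffer cell and macrophage markers 6 were lower in gonadal males and none higher, with a median difference of -0.84. Their mean per array ranged from -0.86 to 0.40 in gonadal males and from -0.24 to 1.55 in gonadal females. The value of 1.55 was on a wide array, and the highest mean on the other 16 arrays was 0.40, that of a gonadal male. Of 14 measured lymphocyte markers 8 were lower, with array means of -0.41 to -0.15 in gonadal males and 0.01 to 0.79 in gonadal females. The wide arrays reached 0.79 here and the other arrays 0.14. Without the wide arrays 5 macrophage markers were lower, with a median of -0.58, and 7 lymphocyte markers were lower and 1 higher, with a median of -0.24, while 2.65% of all features were lower. None of 7 measured hepatocyte markers passed, with array means of -0.21 to 0.22 in gonadal males and -0.15 to 0.23 in gonadal females. Of 13 pericentral markers outside the P450 family, 3 were lower (Rhbg, Slc13a3 and Aldh1a1), with a median of -0.22. Pericentral markers come from the zone around the central vein, where many P450 enzymes are made. Without the wide arrays 1 was lower, and 2 were lower without the library labelled XY- 30, beside 2.87% of all features. Of 9 periportal markers 1 was higher, Asl, and none was higher without the wide arrays or without the library labelled XY- 30. A single gene each was lower among 9 stellate cell, 4 cholangiocyte and 6 erythroid markers, and none of 7 endothelial markers passed, with a median of -0.06. Without the wide arrays no stellate cell marker, 1 cholangiocyte marker and 2 erythroid markers were lower. Fewer cells of a type and less RNA per cell cannot be told apart in whole liver, ratios to a pool do not show whether a marker is absent, and the part of these shifts in the P450 values was not tested.

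Sex chromosome complement gave no call in the family. For XX minus XY, 0 of 65 members passed an adjusted p of 0.05 (limma), against 6 of all features (0.0278%). At an unadjusted p under 0.05, 3 members (4.62%) and 1091 features (5.06%) differed. With the library labelled XY- 30 left out, limma called no member and 13 features (0.0603%), and the unadjusted shares grew to 5 members and 6.62% of features. With the wide arrays left out it called no member and no feature, and 4 members and 6.36% of features passed the unadjusted threshold. With 1 animal left out, the features called ranged from 2 to 13. Cyp20a1 had the smallest p, with a median of 0.16 and a range of -0.03 to 0.43 in XX livers, against -0.17 and -0.35 to 0.19 in XY livers. Its difference was 0.26 ± 0.08 (SE, adjusted p = 0.914). Cyp2d10 followed at 0.40 ± 0.15 and Cyp46a1, the brain cholesterol 24-hydroxylase, at -0.12 ± 0.05, both with an adjusted p of 0.914. Cyp2a12, at 0.34 ± 0.16 (adjusted p = 0.914), had an unadjusted p of 0.0534. Without the library labelled XY- 30, Cyp2a12 had the smallest p of the members, at 0.46 ± 0.13, followed by Cyp20a1 at 0.25 ± 0.08, Cyp2d10 at 0.44 ± 0.15, Cyp2c40 at 0.32 ± 0.11 and Cyp46a1 at -0.11 ± 0.05, all with an adjusted p of 0.749. For Cyp2d9 the difference was 0.11 ± 0.20 (95% interval -0.30 to 0.51), and for Cyp2b13 it was 0.12 ± 0.10 (interval -0.09 to 0.32).

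Within gonadal males, XX Sry minus XY-Sry called 0 members and 1 feature (0.00464%), and at an unadjusted p under 0.05 it held 1 member, Cyp20a1, and 2.06% of features. Without the library labelled XY- 30, which enters this fit only through the shared spread, 0 members and 8 features (0.0371%) were called, and 2 members and 2.23% of features passed the unadjusted threshold. The wide arrays also enter only through the shared spread, and without them 0 members and 2 features (0.00928%) were called. In that fit 7 members and 5.23% of features passed the unadjusted threshold. Within gonadal females, XX minus XY- called 0 members and 0 features (0%) by limma, and at an unadjusted p under 0.05 it held 6 members and 6.08% of features. Once the library labelled XY- 30 was left out, 0 members and 8 features (0.0371%) were called, and 4 members and 6.03% of features passed the unadjusted threshold. Cyp2a12 then had the smallest p of the members, at 0.68 ± 0.19 (SE, adjusted p = 0.741, limma), and it was at 0.44 ± 0.23 over all livers. Without the wide arrays 0 members and 0 features were called within gonadal females, and 2 members and 8.9% of features passed the unadjusted threshold. Unadjusted counts for the gonadal comparisons were 10 members and 12.1% of features within XX, and 5 members and 9.29% of features within XY.

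Whether gonadal type acted differently in XX and XY livers was tested as an interaction, which called 0 members and 0 features (0%) in limma. At an unadjusted p under 0.05 it held 3 members (4.62%) and 556 features (2.58%). Cyp2r1 averaged -0.28 in XX Sry and 0.41 in XX livers, but 0.07 in XY-Sry and -0.01 in XY- livers, an interaction of -0.77 ± 0.24 (SE, adjusted p = 1). Cyp17a1 gave 1.04 ± 0.39 and Cyp2c55, an inducible Cyp2c enzyme, -0.95 ± 0.37, both at an adjusted p of 1. These 3 genes, without the library labelled XY- 30, stood at -0.72, 0.95 and -0.85, 0 members and 0 features were called, and the same 3 genes passed the unadjusted threshold. Without the 4 wide arrays Cyp2r1, Cyp17a1 and Cyp2c55 stood at -0.48, 0.76 and -0.54. That fit called 0 members and 0 features, and 2 members and 7.69% of features passed the unadjusted threshold. Cyp7b1 gave -0.49 ± 0.27, with gonadal differences of 0.23 in XX and 0.72 in XY livers.

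Values spread more over the 20 livers for P450 genes than for most features. The median SD over the 20 arrays was 0.31 for members and 0.16 for all features, and 52 of 65 members exceeded the median of all features. Over the 16 other arrays these medians were 0.22 and 0.14. Cyp2d9 had the largest SD (1.03), then Cyp2c70 (0.89), Cyp3a11 (0.89), Cyp2b10 (0.74), Cyp39a1 (0.72) and Cyp51 (0.67). Of the 130 lowest and highest values of members, 65 (50%) lay on the 4 wide arrays, against 39.1% for all features.

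Some genes of a subfamily moved together across livers. XX 6 had the highest values of Cyp51 (1.91), Cyp2b10 (1.67), Cyp2b23 (1.45) and Cyp3a11 (1.44) of all livers. Cyp3a11 was at -1.96 in XY- 3, -1.69 in XX 2 and -1.21 in XY-Sry 20, and the next lowest liver was XY- 12 at -0.92. Cyp3a41a had its 3 lowest values in XY-Sry 20, XX 2 and XY- 3. XY-Sry 5 held the highest Cyp2b10 (1.05) and Cyp2d9 (1.19) of the gonadal males.

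**Figure D4:**
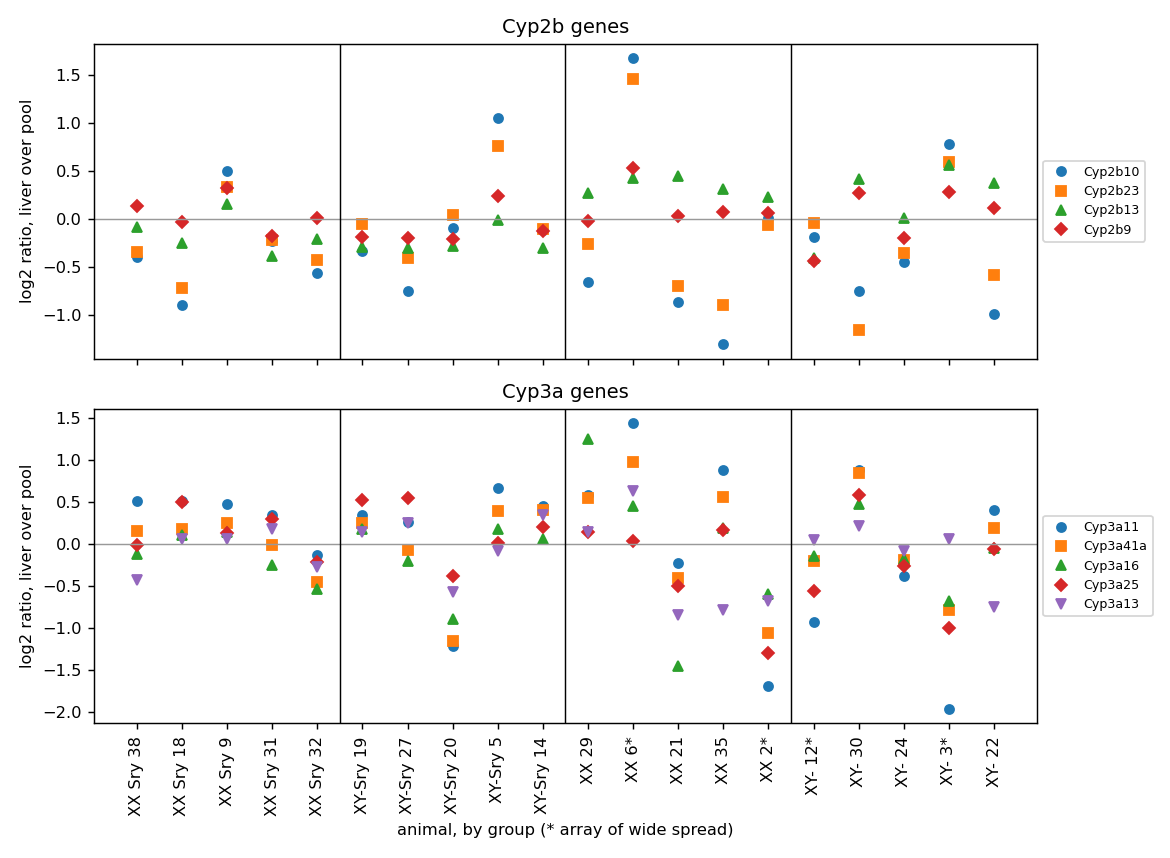
Log2 ratio of liver over pool for 4 Cyp2b genes (top) and 5 Cyp3a genes (bottom) in 20 livers, by group, with asterisks on the wide arrays. Cyp2b10 and Cyp2b23 peak together in XX 6, and the Cyp3a genes are low together in XY-Sry 20 and XX 2.

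Correlations over the 20 arrays describe this sharing, and the arrays have the pool in common. The median over all 2080 pairs of members was 0.07, with 34 pairs above 0.7. Over the 165 pairs within a family group the median was 0.22, with 12 of those pairs above 0.7. Cyp2b10 and Cyp2b23 had r = 0.958 (0.917 without the wide arrays), Cyp2c50 and Cyp2c54 0.947 (0.935), and Cyp3a11 and Cyp3a41a 0.919 (0.951). Probe sequences were not used, so whether the probes of such close relatives read the same transcripts cannot be told. The median among the 5 Cyp3a genes was 0.62, the highest of the family groups, and that among the 6 Cyp4f genes was 0.09. The opposite movement of Cyp4a14 and Cyp4f14, r = -0.901, was -0.0679 without the wide arrays. Within a subfamily, Cyp2j11 and Cyp2j13 also moved in opposite ways, with r = -0.72 (-0.689 without the wide arrays). Cyp2d9 and Cyp2b13 had r = -0.72 (-0.702), which includes the gonadal difference of each.

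Several gonadal differences depended on the wide arrays, which all came from gonadal females. Without them 3 of 65 members (4.62%) and 830 features (3.85%) were called, with Cyp26a1 added. The Cyp26a1 call was lost when the library labelled XY- 30 was left out too. Without the library labelled XY- 30 alone, 2 members and 1129 features (5.24%) were called. Leaving out the wide arrays changed the sign of 13 members, and 5 of the 15 members at an unadjusted p under 0.05 lost at least 50% of their size: Cyp1a2, Cyp2r1, Cyp3a25, Cyp4a14 and Cyp4f14. Cyp2b10 and Cyp2b23, near 0 over all livers, stood at 0.65 ± 0.24 (SE, adjusted p = 0.167, limma) and 0.54 ± 0.19 (adjusted p = 0.132) without them. Cyp2d9 and Cyp2b13 kept their calls.

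**Figure D5:**
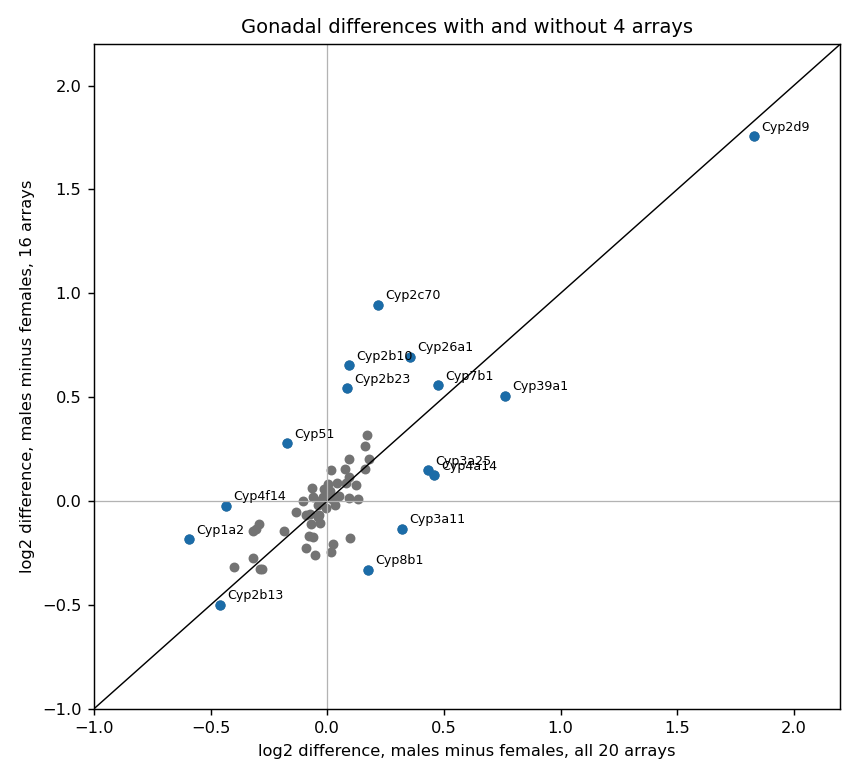
Gonadal difference of each P450 gene on the log2 scale over 20 arrays (x axis) and over 16 arrays without the 4 wide ones (y axis), with the line of equality. Cyp2d9 and Cyp2b13 lie near the line, Cyp2c70, Cyp26a1 and Cyp2b10 lie above it, and Cyp8b1 and Cyp3a11 change sign.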

How the data were processed

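The authors deposited a log10 ratio of liver (Cy5) over a common liver pool (Cy3) for each of 23574 probes, limited at a size of 2. No member value was at that limit or missing. Neither labels nor headers give the log base or the direction. Both were read from the values of Y-linked genes, and another base would scale every log2 value alike without changing p-values. The labels describe the pool as liver of 17 mice, the design text as equal portions of every sample, and the pool cancels between groups. RNeasy columns with DNase yielded the RNA, which was then labelled by an automated aminoallyl MessageAmp II procedure, per the labels' protocols. Scanner, background correction and dye normalization are not given in the sources used here.

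For this work the authors' deposited ratios became log2 values. Probes of 1 gene symbol were averaged; members kept their platform symbol and other probes were named through the Entrez ID where possible. A model of 4 group means over 20 arrays was fitted with limma 3.58.1 in R 4.3.3, with 7 contrasts and Benjamini-Hochberg adjustment over 21556 features. The fit was also run on simulated data with the same spread on every array. That simulation cannot speak to the wide arrays or the library labelled XY- 30. Intervals are at 95%. Each array was a separate animal with its own number, so nothing paired the groups. The number of arrays limits the precision, and signal over background is unknown. Alternatives were centring, quantile normalization, array weights, robust moderation, each probe alone, membership by updated symbols, limit values set to missing, fits of 2 groups only, and omission of single animals, of the library labelled XY- 30 and of the 4 wide arrays. The omission of all 5 together was chosen after seeing the data.

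Members and lists were chosen with earlier results of these data known. Genes were named if called, if among the 4 largest differences of a subfamily or family group, if among the 4 smallest p for complement and interaction, if on a listed P450 set, if their probes disagreed, or if among the 6 largest SDs. Of the regulator, heme and partner lists, genes that passed and those of largest size were named. Further genes were chosen after their values were seen. Promoter windows came from RefSeq (47 members matched) and were aligned with Biopython 1.88 under Python 3.11.15.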

Additional observations from a re-analysis of the deposited data

Results flagged for a closer look

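In groups of 5 animals, 21 of 260 combinations of a P450 gene and a group held an animal far from the other 4 by Dixon's test. Chance marks about 5% of such groups, and 7 of the 21 values lay on the 4 wide arrays. The share over all features was not computed, so whether this count is particular to P450 genes cannot be told. XY-Sry 5 was marked for the most genes. It was high for Cyp17a1 (0.36), Cyp2b9 (0.24), Cyp2d9 (1.19) and Cyp2f2 (0.54), and for Cyp2b13 (-0.01), whose other XY-Sry values were near -0.30. XY-Sry 20 was low for Cyp3a11 (-1.21), and XY-Sry 27 was high for Cyp2c40 (0.46).

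Among XX Sry livers, animal 18 was low for Cyp24a1 (-0.28) and Cyp2e1 (-0.18). Animal 38 was high for Cyp2b19 (0.04), a keratinocyte form. Animal 32 was high for Cyp2r1 (-0.02) and low for Cyp3a11 (-0.13).

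Among XX livers, animal 2 was high for Cyp27b1 (0.23), Cyp2g1 (0.57) and Cyp46a1 (0.10). Animal 6 was high for Cyp2b9 (0.54), and animal 21 was low for Cyp7b1 (-0.61). Among XY- livers, animal 3 was high for Cyp27b1 (0.51) and Cyp4a12a (0.16), and animal 12 was low for Cyp2c29 (-0.71). The library labelled XY- 30 was high for Cyp2c40 (0.55).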

How the results depend on the processing

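Cyp2d9 and Cyp2b13 were called between gonadal males and gonadal females under every alternative run on the averaged probes, with Cyp2d9 between 1.68 and 2.02 and Cyp2b13 between -0.53 and -0.41. Of 65 members, 39 kept the sign of their gonadal difference under all alternatives and 26 changed it under at least 1. Gonadal calls among P450 genes numbered 2, against 4 with array weights (with Cyp7b1 and Cyp26b1 added) and 4 without the 4 wide arrays and the library labelled XY- 30 (with Cyp11b1 and Cyp1b1 added). Quantile normalization added Cyp2g1 (-0.19, adjusted p = 0.0432, limma), and leaving out 1 animal gave 2 to 3. Over all features, the count of 808 was 1677 with array weights and 391 to 1129 when 1 animal was left out. Partner and regulator genes called numbered 2, against 6 with array weights. Calls between XX Sry and XX numbered 1, and 2 with quantile normalization, with array weights and with only these groups in the fit. They were 1 to 3 when 1 animal was left out, with 3 without XY- 12 and 2 without XX 21. Calls between XY-Sry and XY- numbered 1, against 0 with only these groups in the fit and 0 without the wide arrays and XY- 30. They were 1 to 2 when 1 animal was left out, with 2 without XY-Sry 20 or XY- 12. Fewer samples enter the fits that omit groups or arrays, and otherwise the cause was not tested. No paired analysis was possible because every animal has its own number. With 5 animals a group, and no spot intensities, a gene near background could not be told from one that did not differ.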
